A study of Mus musculus with 10 samples.

Results

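Addition and removal of acetyl groups on histones depend on acetyltransferases (writers), deacetylases (erasers) and bromodomain proteins that bind acetyl-lysine (readers), together with the scaffold proteins that hold the deacetylases. The transcripts of 36 mouse genes of this machinery were followed, chosen by name: the zinc-dependent deacetylases Hdac1 to Hdac11, the NAD-dependent sirtuins, 6 acetyltransferases, 4 bromodomain genes, 4 corepressor scaffolds and 4 subunits of the NuRD complex. Of these, 35 were found among the 19025 genes measured, and Sirt4 was not analysed here. The rule names genes and uses no measured level, but the genes and lists were chosen with earlier results of these data known.

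RNA was sequenced from 10 libraries, 2 in each of 5 groups, for a study of chromatin regulators in T lymphocytes. The 2 cultured groups were T cells kept for 5 days under T helper 2 (Th2) conditions, with 15 ng/ml interleukin 2 and 10 ng/ml interleukin 4, either with 10 nM trichostatin A (TSA) from day 2 for a further 3 days or without TSA. The 3 other groups were CD4 T cells and B220-positive B cells, taken with magnetic beads from the spleens of C57BL/6 mice 6 to 8 weeks old at a stated purity over 98%, and embryonic stem (ES) cells of the line B6N-22. The ES cells, all of 1 line, were grown with 1000 units/ml of leukaemia inhibitory factor on fibroblast feeder cells blocked with mitomycin C, so feeder RNA can be part of these libraries. Levels are in FPKM, fragments scaled by transcript length and by the size of the library, as the authors deposited them.

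Class I deacetylases (Hdac1, Hdac2, Hdac3, Hdac8) are mainly nuclear enzymes, and Hdac1 and Hdac2 form the catalytic core of the Sin3, NuRD and CoREST corepressor complexes. Class IIa enzymes shuttle between nucleus and cytoplasm in response to signalling and are known from T cell development and muscle, and sirtuins use NAD and are not inhibited by TSA. TSA is a hydroxamic acid that binds the catalytic zinc of the zinc-dependent enzymes, and the genes of the enzymes it blocks are among those measured here.

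The bases just before the transcription start are shown for 4 genes that changed in some comparison and that have 1 listed start at the edge of the annotated gene. They were read 5′ to 3′ from the RefSeq promoter table of GRCm38.p6, the assembly also called mm10, and stop where an annotated exon begins. Capitals mark matches, on both strands, to 3 motifs. These are the GC box, spelled GGGCGG and in reverse CCGCCC, the box of letters CCAAT, in reverse ATTGG, and the TATA box, spelled TATAAA and in reverse TTTATA. Neighbouring matches can overlap, as in the run near the beginning of the Sirt1 stretch.
Mta2, chr19:8941670-8941874, plus strand: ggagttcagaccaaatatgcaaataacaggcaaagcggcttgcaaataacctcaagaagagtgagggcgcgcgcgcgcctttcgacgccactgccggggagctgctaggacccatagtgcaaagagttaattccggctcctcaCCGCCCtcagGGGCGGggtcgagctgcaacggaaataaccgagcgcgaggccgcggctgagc
Hdac5, chr11:102230173-102230422, minus strand: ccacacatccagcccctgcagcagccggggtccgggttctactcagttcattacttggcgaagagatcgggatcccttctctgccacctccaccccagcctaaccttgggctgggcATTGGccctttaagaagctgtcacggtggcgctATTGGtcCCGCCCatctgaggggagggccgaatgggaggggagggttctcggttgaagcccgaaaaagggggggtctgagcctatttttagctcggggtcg
Sirt1, chr10:63339051-63339285, minus strand: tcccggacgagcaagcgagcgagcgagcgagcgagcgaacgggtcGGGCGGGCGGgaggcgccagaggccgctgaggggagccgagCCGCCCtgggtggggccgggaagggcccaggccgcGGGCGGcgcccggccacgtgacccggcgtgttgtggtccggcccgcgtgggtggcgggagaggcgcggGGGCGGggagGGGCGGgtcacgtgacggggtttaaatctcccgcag
Sin3b, chr8:72723020-72723269, plus strand: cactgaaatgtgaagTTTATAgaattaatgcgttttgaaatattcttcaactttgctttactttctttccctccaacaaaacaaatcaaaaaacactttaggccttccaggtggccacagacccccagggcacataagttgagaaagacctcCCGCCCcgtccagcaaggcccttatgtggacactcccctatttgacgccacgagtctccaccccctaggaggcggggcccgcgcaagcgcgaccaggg
The Sirt1 stretch held 6 GC boxes and 36 CpG dinucleotides, against 2 and 19 for Mta2. Hdac5 had 1 and 12, and Sin3b had 1 and 10. The Sin3b stretch also held the TATA letters in reverse, near its beginning and so far from the transcription start. The table lists 45 starts for 31 of the genes, and none for Hdac1, Hdac3, Hdac10 or Mta3. In the 250 bases before these starts a GC box was present in 66.7% of windows, against 42.6% of the 21262 windows of all protein-coding genes. The CCAAT letters were present in 33.3% against 35.4%, a TATA box in 6.67% against 11.6%, an ETS core (CCGGAAG, in reverse CTTCCGG) in 20.0% against 8.98%, and the cAMP response element TGACGTCA in 0% against 1.92%. The median window held 18 CpG dinucleotides, against 10 for protein-coding genes. These letter matches describe the windows and do not show that a factor binds there.

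The libraries of the groups differed in how closely the pairs agreed. The log2 ratio between the 2 libraries of a group had an SD over genes of 0.337 with TSA and 0.313 without it in Th2 cells, but only 0.054 in CD4 T, 0.052 in B and 0.049 in ES cells. The CD4 T, B and ES pairs differed by no more than read sampling, so each was averaged and counted as 1 sample, and no SD is given for them. Comparisons among these 3 groups therefore have no test. There a gene counts as higher or lower by size: its log2 fold change of FPKM + 1 is 1 or more either way, and the group with more of it reaches 5 FPKM. For the Th2 groups limma was used on log2(FPKM + 1) with a call at an adjusted p under 0.05, and on that scale the changes of weakly expressed genes are understated. No label tells whether replicate libraries stem from different animals or cultures, so these p-values measure the spread between these libraries, which may be technical. The depth is unknown, since FPKM carries no read number.

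Markers of each group were present in it, with limits that touch the results below. The 8 B cell markers in CD4 T cells were at 4.73% to 7.0% of their level in B cells. In the Th2 cultures these 8 B cell markers summed to between 17.9 and 44.6 FPKM with TSA and between 4.53 and 6.68 FPKM without it. A sum of 8 myeloid markers was 6.33 to 7.33 FPKM in TSA-treated and 9.18 to 9.28 FPKM in untreated Th2 cells, 429.8 FPKM in CD4 T and 149 FPKM in B cells. The 8 Th2 markers summed to 634 to 803 FPKM with TSA and 598 to 717 FPKM without it, and limma called 0 of them higher and 4 lower with TSA. All 8 fibroblast markers were above 1 FPKM in ES cells, where they summed to between 1139 and 1147 FPKM. A sum of 8 proliferation genes was 804 to 963 FPKM with TSA, 1163 to 1281 FPKM in untreated Th2, 164 to 169 FPKM in CD4 T, 141 to 142 FPKM in B and 868 to 872 FPKM in ES cells. Summed markers of CD8 T and NK cells ranged from 760.4 to 1091 FPKM in the TSA-treated and from 359 to 1001 FPKM in the untreated Th2 libraries. They summed to 122.7 to 124.3 FPKM in CD4 T and 130.4 to 131.4 FPKM in B cells. In Th2 over CD4 T cells limma called 1 of 7 tested markers of this list higher and 5 lower. Of all genes, 16.9% were higher and 38.1% lower there, so this sum does not describe the list as a whole. In bulk RNA, fewer cells of a type and less RNA per cell cannot be told apart, and the part of these markers in the results was not tested.

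**Figure D1:**
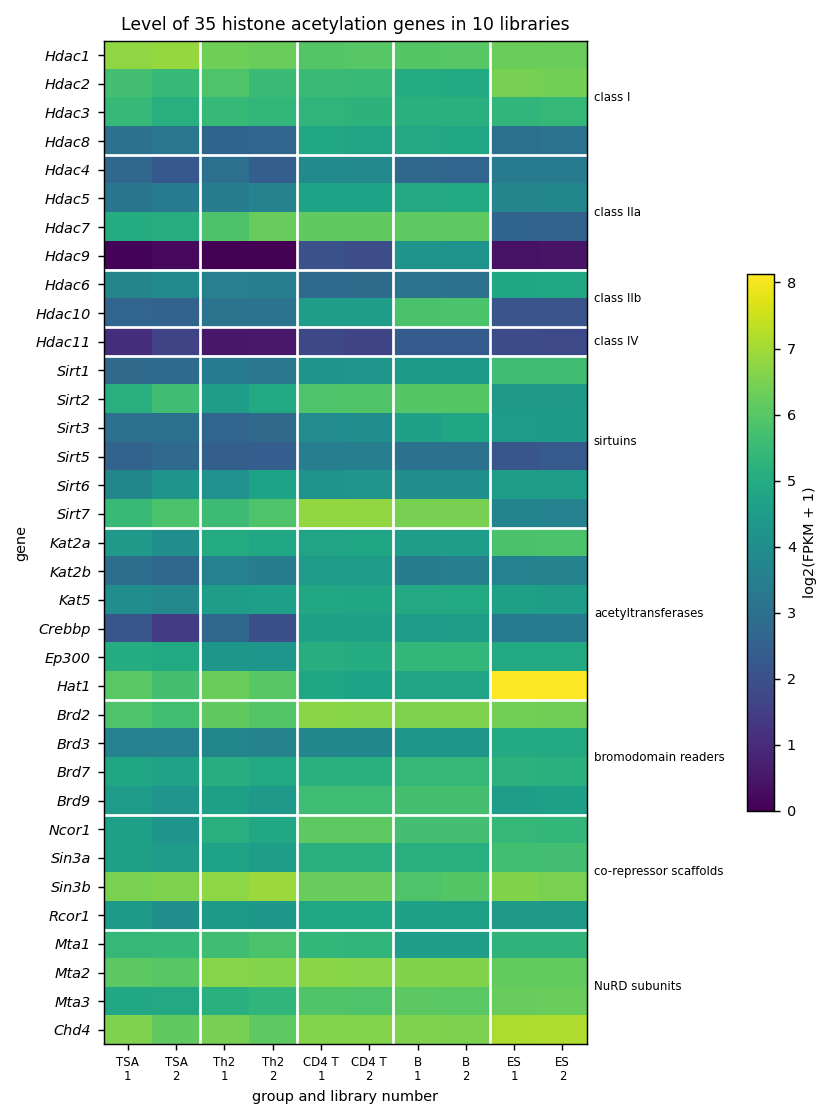
Level of the 35 genes (rows, by class) as log2(FPKM + 1), in each of the 10 libraries (columns; TSA stands for Th2 cells treated with TSA). The pairs of CD4 T, B and ES columns look alike, Hat1 is the brightest row in ES cells, and Hdac9 is near 0 in all 4 Th2 libraries.

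Limma called few of these genes for TSA. The fit had 2 residual degrees of freedom, so a gene without a call is not shown to be unchanged. In TSA-treated over untreated Th2 cells, 2 of 35 were called higher, Hdac1 and Ep300, and 2 lower, Kat5 and Mta2. Over all 12907 genes tested, 9.26% were called higher and 4.14% lower, so the counts are near the background. The median log2 fold change was -0.23 for the 35 genes and 0.02 for all genes. With quantile normalization the calls over all genes split into 937 higher and 804 lower in place of 1195 and 534, and those of the 35 genes into 2 higher and 5 lower. Leaving out genes at 0 in all 4 Th2 libraries, a choice made after seeing the data, also gave 2 higher and 5 lower. All 4 calls were lost when any 1 Th2 library was left out, while each gene kept its direction. Over all genes the calls then fell to 259 higher and 14 lower without the first TSA-treated library, and 10 and 0 without the second. They were 0 without either untreated library.

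Th2 culture for 5 days went with lower transcripts for many of the genes. In Th2 over CD4 T cells, 15 of 35 were called lower, among them Hdac8, Hdac9, Hdac10, Crebbp and 4 of 6 sirtuins, and 4 were called higher (Hat1, Hdac6, Sin3b and Hdac1). Of the 12367 genes tested, 38.1% were called lower and 16.9% higher, and the share of the 35 genes called lower is close to that background. The median log2 fold change was -0.62 for the 35 genes against -0.28 for all genes. Quantile normalization brought the median of all genes to -0.01 and split all calls into 3280 higher and 3514 lower, in place of 2086 and 4709. For the 35 genes it gave 4 higher and 14 lower, and median-ratio scaling gave 5 and 10. Over all genes median-ratio scaling gave 2609 higher and 3679 lower. Each of the 19 called genes kept its direction under both scalings. Without the first or without the second untreated Th2 library the calls were 4, Hdac8, Hdac9, Hdac10 and Sirt3, and without the first or without the second TSA-treated library they were 11. Over all genes, 942 to 1061 were called higher and 2246 to 2382 lower without an untreated library. Without a TSA-treated one these were 1573 to 1574 and 3840 to 3846. The Th2 files hold 1 value per gene symbol and the CD4 T files a value per transcript, and the kind of file and the culture cannot be told apart. This comparison shares the untreated Th2 libraries with the TSA comparison.

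By lineage the genes split in both directions. In CD4 T over ES cells, 8 of 35 were past the size rule as higher and 5 as lower, where 19.3% and 23.3% of all genes were. In B over ES cells, 9 were higher and 5 lower, where 17.5% and 25.0% of all genes were. Both comparisons share the ES libraries. Between the lymphocytes, 2 genes were higher in CD4 T than in B cells (Hdac4 and Kat2b) and 2 lower (Hdac9 and Hdac10), where 6.63% of all genes were higher and 4.39% lower. The median log2 fold change of the 35 genes was 0.12 in CD4 T over ES, 0.22 in B over ES and 0.01 in CD4 T over B cells, against -0.16, -0.30 and 0.05 for all genes. At a log2 fold change of 2 or more the counts were 3 higher and 1 lower in CD4 T over ES (10.8% and 11.9% of all genes), 4 and 1 in B over ES (9.45% and 13.4%) and 0 and 1 in CD4 T over B cells (2.56% and 1.70%).

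**Figure D2:**
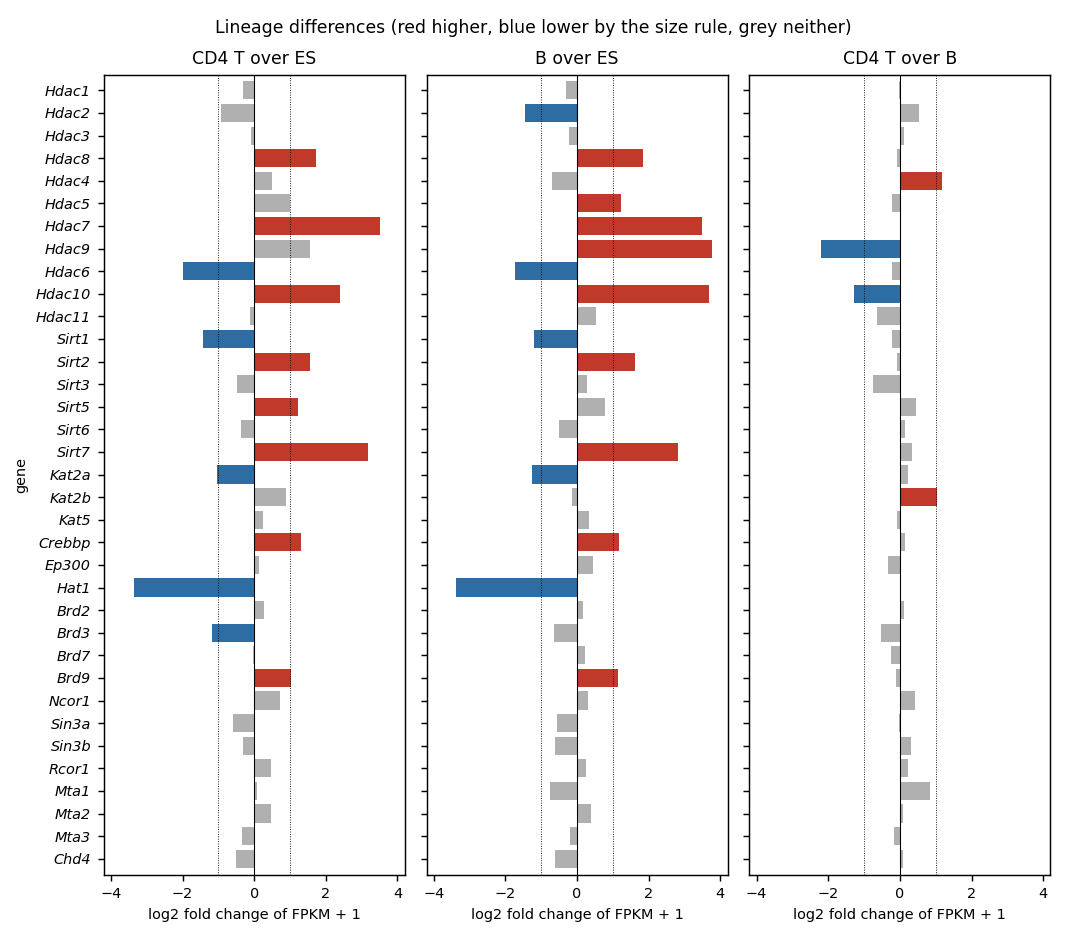
Log2 fold change of FPKM + 1 for the 35 genes in CD4 T over ES, B over ES and CD4 T over B cells, with dotted lines at 1 and -1; red and blue bars are past the size rule. Hdac7, Sirt7 and Hdac10 reach to the right and Hat1 and Hdac6 to the left in both comparisons with ES cells, and 4 bars are coloured in the third panel.

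Among the class I deacetylases, Hdac1, the nuclear enzyme of several corepressor complexes, was the most abundant zinc-dependent deacetylase transcript, in FPKM, in each of the 4 Th2 libraries. Its gene lies on chromosome 4 from 129516104 to 129542646, on the minus strand. Hdac1 had 108 and 113 FPKM in TSA-treated Th2, 79.7 and 76.4 in untreated Th2, 61.0 and 63.4 in CD4 T, 61.7 and 63.9 in B and 78.2 and 76.7 in ES libraries. The TSA-treated libraries were the highest of the 10, and they did not overlap the untreated pair. Hdac1 averaged 111 ± 3.95 FPKM with TSA and 78.0 ± 2.38 FPKM without it (SD, n = 2 each), a log2 fold change of 0.50 ± 0.06 SE, limma adjusted p = 0.0402. Without 1 Th2 library that adjusted p from limma was 0.111 to 0.227, and over all alternatives it ran from 1.92e-04 to 0.227. Ranges over all alternatives, here and below, include the fit of 10 separate libraries, where near-identical libraries count as replicates. With the experiment number fitted as a block, Hdac1 was not called for TSA. In Th2 over CD4 T cells Hdac1 was called higher (0.32 ± 0.08 SE, limma adjusted p = 0.0441), but not with quantile normalization. In CD4 T and B over ES cells its log2 fold changes were -0.31 and -0.30.

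Hdac2, the close relative that shares complexes with Hdac1, was past the size rule in B over ES cells and called in no other comparison. It had 50.9 and 42.9 FPKM in TSA-treated Th2, 57.6 and 46.0 in untreated Th2, 45.2 and 44.8 in CD4 T, 30.9 and 30.4 in B and 86.4 and 85.4 in ES libraries. The ES libraries were the highest and the B libraries the lowest, and the log2 fold change was -1.46 in B over ES and -0.92 in CD4 T over ES cells. The Hdac2 values of the TSA-treated and untreated Th2 libraries overlapped, with a log2 fold change of -0.13 ± 0.17 SE, limma adjusted p = 0.616. As FPKM ratios, Hdac1 over Hdac2 was 2.12 and 2.64 with TSA, 1.39 and 1.66 in untreated Th2, 1.35 and 1.42 in CD4 T, 2.00 and 2.10 in B and 0.906 and 0.899 in ES cells. ES cells were thus the group with more Hdac2 than Hdac1 transcript.

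Hdac3, the catalytic subunit of the NCoR and SMRT complexes, varied least within the class. It stayed between 33.9 and 42.6 FPKM over all 10 libraries and was called in none of the 5 comparisons. Hdac8, a class I enzyme that deacetylates the cohesin subunit Smc3, behaved differently. It had 7.09 and 8.10 FPKM in TSA-treated Th2, 5.12 and 5.22 in untreated Th2, 27.3 and 25.9 in CD4 T, 28.8 and 28.2 in B and 6.96 and 7.61 in ES libraries. The 4 CD4 T and B libraries stood well above the 6 others. Hdac8 was higher in CD4 T and B than in ES cells, with log2 fold changes of 1.74 and 1.83, and lower in Th2 than in CD4 T cells (-2.16 ± 0.13 SE, limma adjusted p = 0.00331). That call held without any 1 of the 4 Th2 libraries, with limma adjusted p-values up to 0.0377 over all alternatives. With TSA both Hdac8 libraries were above the untreated pair, at a log2 fold change of 0.48 ± 0.10 SE, limma adjusted p = 0.0762, which did not pass.

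Of the class IIa deacetylases, Hdac7, known for its part in T cell receptor signalling and thymocyte survival, was the most abundant in each lymphocyte and Th2 library. It had 31.6 and 32.1 FPKM in TSA-treated Th2, 56.7 and 74.8 in untreated Th2, 68.9 and 68.8 in CD4 T, 68.0 and 67.7 in B and 5.12 and 5.07 in ES libraries. The ES libraries were far below all others, with log2 fold changes of 3.52 in CD4 T over ES and 3.50 in B over ES cells. Its level in Th2 cells was near that of CD4 T cells, and its log2 fold change of -0.08 there was 0.18 with median-ratio scaling. With TSA both libraries lay at 31.6 and 32.1 FPKM, below both untreated ones, which were themselves apart. That TSA difference, a log2 fold change of -1.01 ± 0.17 SE, limma adjusted p = 0.0526, missed the threshold, although 5 of the alternatives called it lower. Among these were the fit of 10 separate libraries, where near-identical libraries count as replicates, and the removal of genes at 0 in all 4 Th2 libraries. The latter was chosen after seeing the data. With the experiment number fitted as a block, Hdac7 was not called. Quantile normalization gave -0.81 at a limma adjusted p of 0.0474, and the adjusted p over all alternatives ran from 3.03e-04 to 0.207.

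Hdac9, a class IIa enzyme whose gene also encodes a truncated form without the catalytic domain, was highest in B cells. It had 0.06 and 0.15 FPKM in TSA-treated Th2, 0.02 and 0.02 in untreated Th2, 3.08 and 2.82 in CD4 T, 17.6 and 17.1 in B and 0.32 and 0.35 in ES libraries. CD4 T cells had about 3 FPKM, far below B cells, and the Th2 and ES libraries were all under 1 FPKM. The log2 fold change was 3.78 in B over ES and -2.22 in CD4 T over B cells. In CD4 T over ES cells it was 1.57, but Hdac9 did not reach 5 FPKM and was not called. The CD4 T level of Hdac9 was 17.0% of the B level, against the 4.73% to 7.0% seen for the 8 B cell markers. Hdac9 was called lower in Th2 than in CD4 T cells (-1.95 ± 0.06 SE, limma adjusted p = 0.00134), also without any 1 Th2 library.

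Hdac4 and Hdac5 are the class IIa enzymes best known as signal-dependent repressors of MEF2 targets. Hdac4 had 5.67 and 3.76 FPKM in TSA-treated Th2, 6.89 and 4.51 in untreated Th2, 13.6 and 13.3 in CD4 T, 5.49 and 5.21 in B and 9.25 and 9.38 in ES libraries. CD4 T cells had the most, and the log2 fold change was 1.18 in CD4 T over B cells. In Th2 over CD4 T cells it was -1.13 ± 0.36 SE, limma adjusted p = 0.0789 and not called. Hdac5, whose upstream bases are given above, had 7.93 and 9.18 FPKM in TSA-treated Th2, 9.63 and 11.5 in untreated Th2, 24.9 and 25.3 in CD4 T, 28.8 and 30.0 in B and 12.02 and 12.2 in ES libraries. The CD4 T and B libraries formed the high group, with a log2 fold change of 1.22 in B over ES cells and one just short of the size rule in CD4 T over ES cells. Hdac5 was called lower in Th2 than in CD4 T cells (-1.18 ± 0.17 SE, limma adjusted p = 0.0147). For TSA neither passed, at log2 fold changes of -0.23 for Hdac4 and -0.27 for Hdac5.

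Against ES cells the class IIb enzymes Hdac6 and Hdac10 differed in opposite directions, with Hdac6 lower and Hdac10 higher in both lymphocytes, while in CD4 T over B cells both values were negative, -0.23 for Hdac6, not past the size rule, and -1.27 for Hdac10. Hdac6, the cytoplasmic deacetylase of tubulin, had 12.1 and 13.4 FPKM in TSA-treated Th2, 10.6 and 10.1 in untreated Th2, 6.14 and 6.27 in CD4 T, 7.49 and 7.42 in B and 27.1 and 27.5 in ES libraries. ES cells had the most Hdac6 and CD4 T cells the least, with log2 fold changes of -1.97 in CD4 T over ES and -1.74 in B over ES cells. It was called higher in Th2 than in CD4 T cells (0.65 ± 0.12 SE, limma adjusted p = 0.0241). Hdac10, which acts on acetylated polyamines, had 5.34 and 5.04 FPKM in TSA-treated Th2, 7.69 and 7.56 in untreated Th2, 22.6 and 22.0 in CD4 T, 54.7 and 55.8 in B and 3.45 and 3.38 in ES libraries. The order was B above CD4 T above all Th2 libraries above ES, with no overlap between these. Log2 fold changes for Hdac10 were 3.67 in B over ES and 2.40 in CD4 T over ES cells. The CD4 T level of Hdac10 was 40.3% of the B level. In Th2 over CD4 T cells it was called lower (-1.43 ± 0.10 SE, limma adjusted p = 0.00443), also without any 1 Th2 library. With TSA it averaged 5.19 FPKM against 7.63 FPKM without it, a log2 fold change of -0.48 ± 0.08 SE, limma adjusted p = 0.0561, just outside the threshold. Quantile normalization called Hdac10 lower with TSA (limma adjusted p = 0.0461), as did a prior without trend and the fit of 10 separate libraries.

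Hdac11, the sole class IV enzyme and a defatty-acylase, was low everywhere. It had 1.08 and 2.18 FPKM in TSA-treated Th2, 0.44 and 0.46 in untreated Th2, 2.36 and 2.15 in CD4 T, 4.13 and 4.10 in B and 2.65 and 2.46 in ES libraries. The highest values were in B cells and the lowest in untreated Th2 cells, and both TSA-treated libraries lay above both untreated ones. Neither the TSA difference (0.83 ± 0.25 SE, limma adjusted p = 0.121) nor the Th2 difference (-1.17 ± 0.30 SE, limma adjusted p = 0.0509) passed. Without the first TSA-treated library, the TSA comparison had Hdac11 as its one call among the 35 genes.

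Over the 11 zinc-dependent enzymes, class I genes made up 76.5% and 75.1% of their summed FPKM in TSA-treated Th2, 66.8% and 60.6% in untreated Th2, 54.8% and 55.0% in CD4 T, 45.6% in both B and 77.9% and 77.8% in ES libraries. The class IIa share was 16.7% and 17.1% with TSA, 26.4% and 32.8% in untreated Th2, 35.3% in both CD4 T, 35.0% and 34.8% in B and 9.84% and 9.95% in ES libraries. The sum itself differed little, from 264 to 345 FPKM. In their class I share the TSA-treated libraries were thus closer to ES cells than to CD4 T cells. Between TSA-treated and untreated libraries the shift lay in more Hdac1 and less Hdac7, of which the Hdac7 difference did not pass. These shares are descriptions of transcript levels, with no test.

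**Figure D3:**
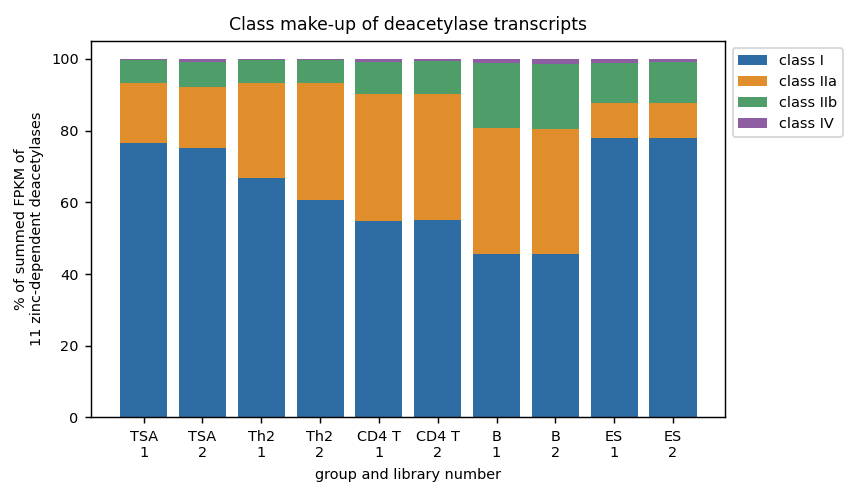
Share of each deacetylase class in the summed FPKM of the 11 zinc-dependent deacetylases, in percent, for each library (TSA stands for Th2 cells treated with TSA). Class I takes 76.5% and 75.1% with TSA, 66.8% and 60.6% in untreated Th2 and 45.6% in B cells.

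Sirtuins divided by lineage. Sirt7, a nucleolar enzyme that removes acetyl from H3 lysine 18, was the most abundant sirtuin in CD4 T and B cells and had 43.2 and 55.6 FPKM in TSA-treated Th2, 46.3 and 58.0 in untreated Th2, 111 and 111 in CD4 T, 86.6 and 87.5 in B and 11.7 and 11.2 in ES libraries. ES cells were the lowest, with log2 fold changes of 3.17 in CD4 T over ES and 2.82 in B over ES cells. Sirt7 was called lower in Th2 than in CD4 T cells (-1.08 ± 0.24 SE, limma adjusted p = 0.0375), a call not made with median-ratio scaling. The TSA-treated and untreated values overlapped. Sirt1, which deacetylates histones, p53 and FOXO factors and whose upstream bases are given above, ran the other way. It had 5.99 and 6.09 FPKM in TSA-treated Th2, 9.35 and 8.29 in untreated Th2, 17.2 and 17.7 in CD4 T, 20.6 and 20.4 in B and 48.5 and 48.7 in ES libraries. The ES libraries were the highest and the Th2 libraries, treated or not, the lowest. Log2 fold changes of Sirt1 were -1.43 in CD4 T over ES and -1.21 in B over ES cells, and it was called lower in Th2 than in CD4 T cells (-0.91 ± 0.12 SE, limma adjusted p = 0.0118). Both TSA-treated Sirt1 values were below both untreated ones, a difference that did not pass (-0.48 ± 0.10 SE, limma adjusted p = 0.0673). Quantile normalization called Sirt1 lower with TSA (limma adjusted p = 0.0499), as did the fit of 10 separate libraries.

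Sirt2, a mainly cytoplasmic deacetylase, was high in the lymphocytes and had 33.7 and 48.1 FPKM in TSA-treated Th2, 21.9 and 29.6 in untreated Th2, 58.4 and 59.9 in CD4 T, 62.2 and 61.9 in B and 19.5 and 19.7 in ES libraries. It was past the size rule in CD4 T over ES (1.55) and B over ES cells (1.61). The Th2 values were below those of CD4 T cells in all 4 libraries, but the log2 fold change of -1.18 ± 0.32 SE, limma adjusted p = 0.057 did not pass. Both TSA-treated Sirt2 values were above the untreated ones, and that too did not pass (0.64 ± 0.26 SE, limma adjusted p = 0.193). With the experiment number fitted as a block, Sirt2 was called higher with TSA. The mitochondrial enzymes Sirt3 and Sirt5 were both lower in Th2 than in CD4 T cells. Sirt3 had 5.23 and 6.06 FPKM in untreated Th2 and 14.3 and 14.8 FPKM in CD4 T libraries (-1.23 ± 0.13 SE, limma adjusted p = 0.00834), and its call held without any 1 Th2 library. Some of its exon bases lie opposite those of Ric8a and Psmd13, and the part of such reads in its values was not tested. Sirt5, a desuccinylase, had 4.50 and 4.41 FPKM in untreated Th2 and 10.1 and 10.1 FPKM in CD4 T libraries (-1.02 ± 0.14 SE, limma adjusted p = 0.0126), a call not made with quantile normalization. Sirt5 was also past the size rule in CD4 T over ES cells, at 1.23. Sirt6, a deacetylase of H3 lysine 9, ranged from 12.1 to 25.3 FPKM and was called in no comparison. No sirtuin was called for TSA by limma in the main fit, and their median log2 fold change was 0.08.

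Among the acetyltransferases, Hat1, which acetylates newly made histone H4 before it is deposited, had the widest range of all 35 genes in FPKM. It had 65.1 and 52.4 FPKM in TSA-treated Th2, 76.9 and 63.5 in untreated Th2, 26.8 and 25.4 in CD4 T, 26.1 and 25.8 in B and 276 and 278 in ES libraries. ES cells stood apart from all others, and Th2 cells of both kinds lay above CD4 T and B cells. The log2 fold change was -3.36 in CD4 T over ES and -3.37 in B over ES cells, and Hat1 was called higher in Th2 than in CD4 T cells (1.39 ± 0.21 SE, limma adjusted p = 0.0165). The summed proliferation genes were also high in the ES and Th2 libraries, and their part in the Hat1 levels was not tested. With TSA the Hat1 values overlapped the untreated ones.

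Ep300 and Crebbp, paralogous coactivators that acetylate H3 lysines 18 and 27, had different patterns. The Ep300 gene lies on chromosome 15 from 81586209 to 81652077, on the plus strand, and had 31.7 and 29.8 FPKM in TSA-treated Th2, 18.5 and 18.1 in untreated Th2, 32.5 and 31.9 in CD4 T, 40.8 and 40.9 in B and 29.6 and 29.5 in ES libraries. Untreated Th2 libraries were the lowest of all, and the TSA-treated pair lay in the range of the ES and CD4 T libraries. Ep300 averaged 30.8 ± 1.36 FPKM with TSA and 18.3 ± 0.29 FPKM without it (SD, n = 2 each), a log2 fold change of 0.72 ± 0.07 SE, limma adjusted p = 0.0324. Leaving out 1 Th2 library gave limma adjusted p-values of 0.0952 to 0.210, and the range over all alternatives was 3.29e-05 to 0.210. In Th2 over CD4 T cells Ep300 was called lower (-0.78 ± 0.08 SE, limma adjusted p = 0.00817).

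Crebbp had 3.47 and 1.64 FPKM in TSA-treated Th2, 5.64 and 2.96 in untreated Th2, 24.1 and 23.9 in CD4 T, 21.7 and 21.7 in B and 9.21 and 9.12 in ES libraries. All 4 Th2 libraries were below the 6 others, and the 2 libraries within each Th2 group were wide apart. Crebbp was past the size rule in CD4 T over ES (1.3) and B over ES cells (1.16), and was called lower in Th2 than in CD4 T cells (-2.29 ± 0.53 SE, limma adjusted p = 0.0403), though with neither quantile normalization nor median-ratio scaling. Its TSA-treated and untreated values overlapped (-0.58 ± 0.43 SE, limma adjusted p = 0.415). As FPKM ratios, Ep300 over Crebbp was 9.14 and 18.2 with TSA, 3.29 and 6.12 in untreated Th2, 1.35 and 1.33 in CD4 T, 1.88 in both B and 3.21 and 3.23 in ES cells.

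Kat2a (GCN5) and Kat2b (PCAF) are paralogous H3 lysine 9 acetyltransferases of the SAGA and ATAC complexes. Kat2a had 20.0 and 15.2 FPKM in TSA-treated Th2, 31.0 and 28.5 in untreated Th2, 26.0 and 26.4 in CD4 T, 22.2 and 22.7 in B and 54.6 and 55.5 in ES libraries. ES cells were highest, with log2 fold changes of -1.04 in CD4 T over ES and -1.26 in B over ES cells. Kat2b had 6.59 and 5.73 FPKM in TSA-treated Th2, 10.8 and 9.53 in untreated Th2, 21.1 and 21.7 in CD4 T, 9.95 and 10.1 in B and 10.9 and 11.3 in ES libraries. CD4 T cells were highest for Kat2b, with a log2 fold change of 1.02 in CD4 T over B cells. That change fell short of the size rule with quantile normalization (0.97) and median-ratio scaling (0.94). Kat2b was called lower in Th2 than in CD4 T cells (-1.01 ± 0.15 SE, limma adjusted p = 0.0159). With TSA both paralogs lay below both untreated libraries. Neither passed, at log2 fold changes of -0.74 ± 0.17 SE, limma adjusted p = 0.0805 for Kat2a and, for Kat2b, -0.64 ± 0.12 SE, limma adjusted p = 0.0635. Both were called when genes at 0 in all 4 Th2 libraries were left out. With the experiment number fitted as a block, Kat2b was called lower and Kat2a was not called.

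Kat5 (TIP60), the acetyltransferase of the NuA4 complex that acts on histones H4 and H2A, lies on chromosome 19 from 5603014 to 5611556, on the minus strand. It had 14.9 and 13.1 FPKM in TSA-treated Th2, 22.6 and 23.0 in untreated Th2, 28.2 and 26.7 in CD4 T, 28.7 and 29.9 in B and 23.6 and 22.7 in ES libraries. The TSA-treated libraries were the lowest of the 10 and did not overlap any other group. Kat5 averaged 14.0 ± 1.27 FPKM with TSA and 22.8 ± 0.30 FPKM without it (SD, n = 2 each), a log2 fold change of -0.67 ± 0.09 SE, limma adjusted p = 0.0433. Without 1 Th2 library the limma adjusted p was 0.0901 to 0.229, and over all alternatives it ran from 2.17e-04 to 0.229. With the experiment number fitted as a block, Kat5 was not called. In GENCODE, 12.1% of the exon bases of Kat5 lie opposite those of Rnaseh2c, a gene at 55.9 FPKM on average in the Th2 files. The use of strand is not given in the sources used here, so reads of the overlap cannot be assigned. Such overlap with a gene of the opposite strand also touches Hdac4 (22.4% of exon bases), Hdac11 (15.4%), Sirt3 (7.0%) and Brd2 (5.18%), as the largest single overlap of each. Sirt3 also overlaps Psmd13 (5.73%), and Brd2 overlaps H2-DMa (4.6%). Psmd13 averaged 76.8 FPKM and H2-DMa 48.3 FPKM in the Th2 files. Kat5 passed in no other comparison.

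**Figure D4:**
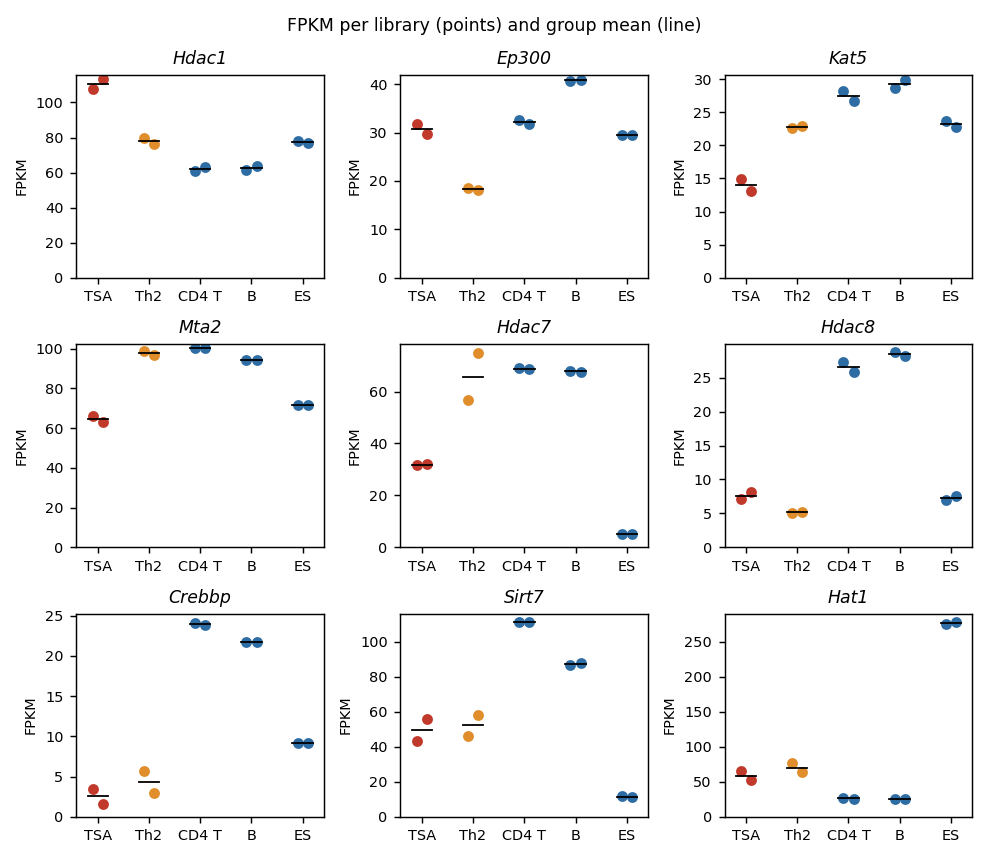
FPKM of 9 genes in each library (points) with the mean of each group (line), in TSA-treated Th2 (TSA), untreated Th2, CD4 T, B and ES cells. Hdac1 and Ep300 are higher and Kat5 and Mta2 lower with TSA than without it, with no overlap, while Hat1 stands out in ES cells at 276 and 278 FPKM.

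Of the 4 bromodomain readers, Brd3 and Brd9 were past the size rule in a lineage comparison. Brd2, a BET protein that binds acetylated H4, was the most abundant of the 4 in every library and had 69.6 and 60.7 FPKM in untreated Th2 and 101 and 100.3 FPKM in CD4 T libraries. It was called lower in Th2 cells (-0.62 ± 0.16 SE, limma adjusted p = 0.048), although not with median-ratio scaling. Brd3, the BET protein known to bind acetylated GATA1, had 12.6 and 12.7 FPKM in CD4 T, 18.6 and 18.9 FPKM in B and 30.0 and 29.7 FPKM in ES libraries. It was past the size rule in CD4 T over ES cells, at -1.17. Brd7 and Brd9 are subunits of different SWI/SNF complexes. Brd7 ranged from 24.7 to 41.7 FPKM and was called in no comparison. Brd9 had 21.1 and 18.0 FPKM in TSA-treated Th2, 23.8 and 19.4 in untreated Th2, 47.9 and 47.4 in CD4 T, 51.9 and 51.8 in B and 22.6 and 23.4 in ES libraries. The CD4 T and B values of Brd9 were the high group, with log2 fold changes of 1.02 and 1.14 over ES cells, and it was called lower in Th2 than in CD4 T cells (-1.11 ± 0.19 SE, limma adjusted p = 0.0205). The 4 readers had TSA log2 fold changes between -0.27 and -0.08, and none was called by limma in the main fit.

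Of the corepressor scaffolds, none was past the size rule in a lineage comparison. Ncor1, the scaffold that activates Hdac3, had 23.5 and 17.3 FPKM in TSA-treated Th2, 33.8 and 27.6 FPKM in untreated Th2 and 68.2 and 67.9 FPKM in CD4 T libraries. It was called lower in Th2 than in CD4 T cells (-1.13 ± 0.26 SE, limma adjusted p = 0.0384), not so with median-ratio scaling. Its TSA difference did not pass (-0.57 ± 0.21 SE, limma adjusted p = 0.162). With the experiment number fitted as a block, Ncor1 was called lower with TSA. Sin3b, which with Sin3a names the SIN3 complexes and whose upstream bases are given above, had 106 and 119.6 FPKM in untreated Th2 and 73.7 and 75.1 FPKM in CD4 T libraries (0.59 ± 0.11 SE, limma adjusted p = 0.0262). Its 2 transcripts differ in the CD4 T files, where the lower one, at 35.0 and 34.8 FPKM, is left out of these values. The Th2 files give 1 value for both transcripts, and whether that is a gene total is not given. The Sin3b call may thus set unlike values side by side, and the part of this in the difference was not tested. Sin3a and Rcor1, the CoREST scaffold, passed in neither culture comparison, with log2 fold changes in Th2 over CD4 T cells of -0.47 and -0.46. For TSA they were at -0.05 and -0.14.

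The NuRD complex joins the deacetylases Hdac1 and Hdac2 to a chromatin remodeller. Mta2, one of its 3 alternative MTA subunits, lies on chromosome 19 from 8941920 to 8952300, on the plus strand, downstream of the bases given above. It had 65.9 and 63.3 FPKM in TSA-treated Th2, 99.0 and 96.9 in untreated Th2, 100.5 and 100.2 in CD4 T, 94.4 and 94.1 in B and 71.9 and 71.8 in ES libraries. TSA-treated libraries were the lowest, under those of ES cells, and far from the untreated pair. Mta2 averaged 64.6 ± 1.85 FPKM with TSA and 97.9 ± 1.51 FPKM without it (SD, n = 2 each), a log2 fold change of -0.59 ± 0.06 SE, limma adjusted p = 0.0333. Without 1 Th2 library the limma adjusted p was 0.0965 to 0.210, and over all alternatives 4.05e-05 to 0.210. Its level in Th2 and CD4 T cells differed little, at -0.03, and at 0.23 with median-ratio scaling.

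Mta3, another MTA subunit, had 28.3 and 29.0 FPKM in TSA-treated Th2, 34.4 and 39.5 FPKM in untreated Th2, 59.9 and 57.8 FPKM in CD4 T, 66.2 and 65.4 FPKM in B and 74.7 and 75.8 FPKM in ES libraries. It was called lower in Th2 than in CD4 T cells (-0.66 ± 0.12 SE, limma adjusted p = 0.0224), not so with median-ratio scaling. Mta1 ranged from 21.9 to 55.1 FPKM, with B cells lowest, and passed in no comparison of the main fit. It was called higher in Th2 than in CD4 T cells with quantile normalization (limma adjusted p = 0.0333) and median-ratio scaling (limma adjusted p = 0.0276). Chd4, the remodelling ATPase, ranged from 68.3 to 140.2 FPKM with ES cells highest and was called in no comparison. In TSA-treated over untreated Th2 cells Mta1 was at -0.31, Mta3 at -0.35 and Chd4 at 0.06. Of these 4 NuRD genes limma called Mta2 lower with TSA, and its difference from the other 3 was not tested.

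**Figure D5:**
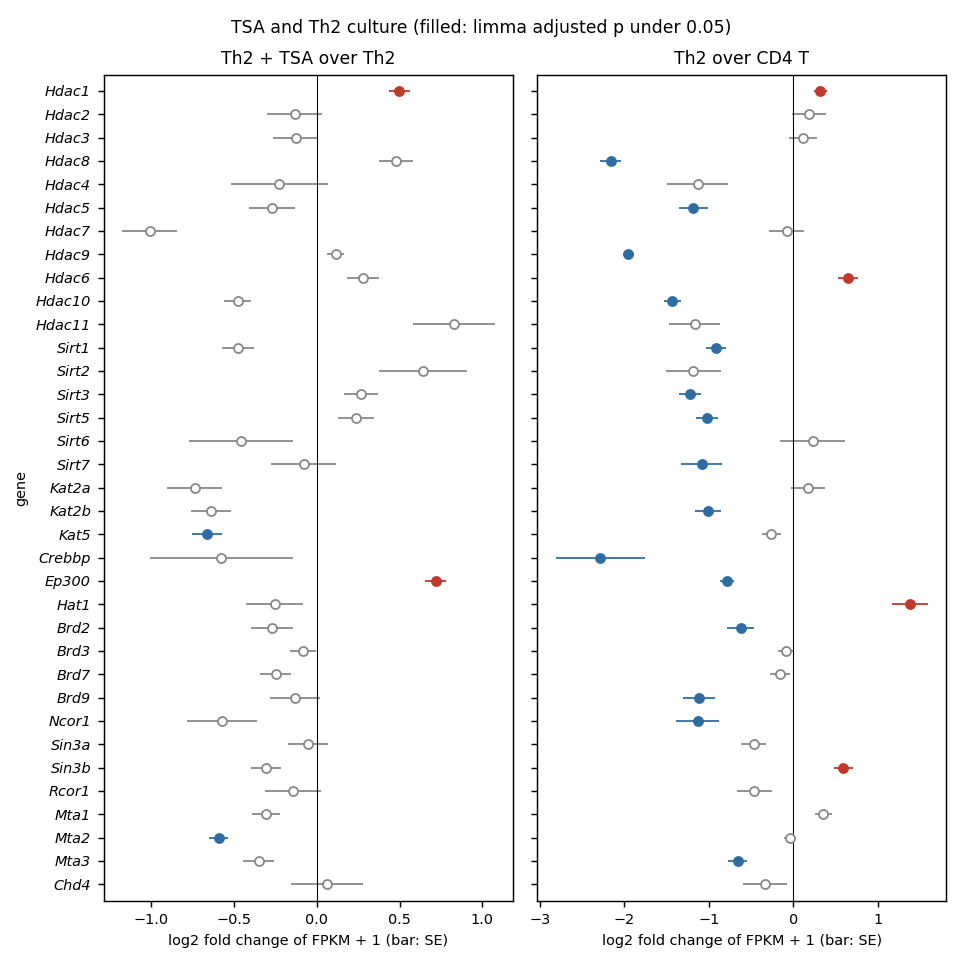
Log2 fold change of FPKM + 1 with its SE (bar) for the 35 genes, in TSA-treated over untreated Th2 cells (left) and Th2 over CD4 T cells (right); filled points passed at a limma adjusted p under 0.05, red higher and blue lower. Filled points number 4 on the left and 19 on the right, of which 15 are blue.

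Other genes of the pathway were read by list. In TSA-treated over untreated Th2 cells, limma called 0 higher and 4 lower of 32 other genes of deacetylase complexes, where 9.26% of all genes were higher and 4.14% lower. The lower ones with the largest changes were Mbd3, a NuRD subunit, at 31.4 and 24.3 FPKM with TSA and 56.6 and 64.8 FPKM without it (-1.10 ± 0.17 SE, limma adjusted p = 0.0485), Cdk2ap1 at a log2 fold change of -1.04 and Brms1l at -0.75. Of 37 genes of acetyltransferase complexes, 0 were higher and 8 lower, led by Meaf6 at -0.87, Epc1 at -0.86 and Taf5l at -0.85. All 3 belong to complexes that carry Kat5, Kat7 or Kat2a. The median of that list was -0.35 against 0.02 for all genes, and there were 0 higher and 8 lower under quantile normalization and 0 and 6 with median-ratio scaling. Over all genes there were 937 higher and 804 lower under quantile normalization, and 1233 and 528 with median-ratio scaling. Among 13 further acetyltransferases 0 were higher and 1 lower, Kat7 at -0.58. Of 27 other readers 1 was higher and 1 lower. Brdt, the BET protein of the testis, had 1.51 and 1.62 FPKM with TSA and 0.22 and 0.33 FPKM without it (1.01 ± 0.06 SE, limma adjusted p = 0.0268), and Brd1 had a log2 fold change of -0.66. Without any 1 of the 4 Th2 libraries limma called 0 genes of these lists. Few of all 12907 genes were called in those fits, which limits what a count of 0 shows. They were 259 higher and 14 lower without the first TSA-treated library, 10 and 0 without the second, and 0 without either untreated one. At an unadjusted p under 0.05 were 5 to 9 of the deacetylase complex genes and 8 to 13 of the acetyltransferase complex genes. The further acetyltransferases had 1 to 3, the readers 3 to 8 and all genes 2677 to 4151.

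Acetyl-CoA is the donor of the acetyl group. The list on its supply holds 6 genes, of which Acat2, a thiolase, uses acetyl-CoA and Nampt is an enzyme of NAD salvage. With TSA limma called 0 of the 6 higher and 3 lower (Slc25a1, Acly and Acat2), where 9.26% of all genes were higher and 4.14% lower. The counts were the same under quantile normalization and median-ratio scaling. Without any 1 of the 4 Th2 libraries limma called 0 of the 6, with 3 to 4 at an unadjusted p under 0.05. Of all 12907 genes, 2677 to 4151 were at that p in those fits. Limma then called 0 to 259 of all genes higher and 0 to 14 lower. Slc25a1, the mitochondrial citrate carrier, had 22.6 and 23.8 FPKM with TSA and 51.1 and 63.6 FPKM without it (-1.26 ± 0.14 SE, limma adjusted p = 0.0354). Acly, which splits citrate into acetyl-CoA, had 56.2 and 45.2 FPKM with TSA and 113 and 120.4 FPKM without it (-1.19 ± 0.14 SE, limma adjusted p = 0.037). Acat2 had a log2 fold change of -0.67. In all 3 the TSA-treated and untreated libraries did not overlap.

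In Th2 over CD4 T cells, 4 of the 32 other deacetylase complex genes were called higher and 16 lower, 4 and 12 of the 37 acetyltransferase complex genes, 0 and 7 of the 13 further acetyltransferases, and 2 and 10 of the 27 other readers, where 16.9% of all genes were higher and 38.1% lower. Without 1 of the untreated Th2 libraries these were 2 higher and 2 to 4 lower, 2 and 5, 0 and 2, and 0 and 5 to 6, in the same order. Of all 12367 genes, 942 to 1061 were then higher and 2246 to 2382 lower. With median-ratio scaling there were 4 higher and 8 lower in the deacetylase complexes, 5 and 10 in the acetyltransferase complexes, 1 and 5 among the further acetyltransferases, and 3 and 8 among the readers. Of all 12302 genes tested with that scaling, 2609 were higher and 3679 lower. The largest changes were those of Cdk2ap1 (2.98), Sap30 (2.24) and Arid4a (-2.04) in the deacetylase complexes, and of Epc1 (-2.27), Jade2 (-2.24) and Taf9 (2.23) in the acetyltransferase complexes, as log2 fold changes. Among the further acetyltransferases Ncoa1 was at -1.63, Ncoa2 at -1.50 and Kat6a at -1.33. Among readers Baz2b was at -3.18, Smarca2, a SWI/SNF ATPase, at -2.32 and Brwd1 at -1.60. The 6 genes of the acetyl-CoA list split into 3 higher and 2 lower, with Acss1 at -3.15, Acat2 at 2.33 and Slc25a1 at 2.06.

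By lineage, the other deacetylase complex genes counted 7 higher and 7 lower of 32 in CD4 T over ES and 6 and 7 in B over ES cells. The shares over all genes were 19.3% and 23.3% in CD4 T over ES, and 17.5% and 25.0% in B over ES cells. Rcor2, a CoREST scaffold, was at a mean of 0.79 FPKM in CD4 T, 1.11 FPKM in B and 77.3 FPKM in ES cells, log2 fold changes of -5.45 and -5.21. Chd3, a remodeller of NuRD, was at 145 FPKM in CD4 T, 38.3 FPKM in B and 8.71 FPKM in ES cells, with a log2 fold change of 3.91 in CD4 T over ES and 1.89 in CD4 T over B cells. Sap30 was at -2.94 in CD4 T over ES and -2.83 in B over ES cells. Of the acetyltransferase complex genes 7 were higher and 7 lower of 37 in CD4 T over ES, and 7 and 6 in B over ES cells, with Jade1 at -3.25 and -3.24. The other readers counted 4 higher and 4 lower of 27 in CD4 T over ES, and 5 and 4 in B over ES cells. Smarca2 averaged 59.3 FPKM in CD4 T, 42.2 FPKM in B and 2.01 FPKM in ES cells, and Trim28, a corepressor of endogenous retroviruses, averaged 63.9 FPKM in CD4 T, 63.5 FPKM in B and 584.5 FPKM in ES cells.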

How the data were processed

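The deposited files give FPKM per transcript row, which the authors had already divided by transcript length and library total. Bowtie 0.12.8, TopHat 1.3.2, Cufflinks 2.0.2 and mm10 are named in the submitters' processing notes; for settings, strand and read numbers, nothing is given in the sources used here. Each file held 21035 rows, and a gene's value was its highest row. Groups came from the sample titles. The genes and lists were chosen with earlier results of these data known. ES, B and CD4 T pairs differed by no more than read sampling and were averaged, leaving 7 samples and 2 residual degrees of freedom; the lone CD4 T sample is thereby taken to vary as much as the Th2 libraries do. Genes with 1 FPKM or more in at least 2 libraries were fitted with limma 3.58.1 (R 4.3.3) on log2(FPKM + 1), with a trended prior, two-sided, and Benjamini-Hochberg adjustment over all genes; genes at 0 in all 4 Th2 or all 6 other files were left out of Th2 over CD4 T cells. Lineage comparisons used the size rule and no test. Alternatives were the pseudocount, filters, row sums and means, quantile and median-ratio scaling, single libraries left out, a replicate block, 10 separate libraries and a prior without trend. Restricting to genes with 1 transcript row, and leaving out genes at 0 in all 4 Th2 libraries, were chosen after seeing the data. Genes called, past the size rule, or highest or lowest in their class were named, with up to 3 called genes of each other list by size of change. The fit was tested on simulated data.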

Additional observations from a re-analysis of the deposited data

How the results depend on the processing

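None of the 35 genes called in a comparison changed direction in it under any alternative run. With a size rule of 2 on the log2 scale, calls in CD4 T over ES cells were 4 (3 higher, 1 lower), in B over ES cells 5 (4 and 1) and in CD4 T over B cells 1 (0 and 1). Genes with 1 transcript row, 29 of the 35, gave 3 lower in CD4 T over ES cells. Brd3 and Kat2a, lower there in the main setting, have several rows and were not among them. Either quantile normalization or median-ratio scaling gave 1 higher in CD4 T over B cells. For Th2 over CD4 T cells, leaving out 1 library gave 4 to 20 calls (0 to 4 higher, 4 to 16 lower), and 4 without either untreated Th2 library. For TSA, it gave 0 to 4 calls (0 to 2 higher, 0 to 2 lower): 1 without the first TSA-treated library and 0 by limma without the second or without either untreated one, where 7 of the 35 genes had an unadjusted p under 0.05 each time. Of all 12907 genes, 2677 to 3244 had such a p where the 35 genes had 0 calls. TSA calls were 2 (1 higher, 1 lower) without a filter, 7 (2 and 5) with quantile normalization, 7 (2 and 5) without genes at 0 in all 4 Th2 libraries, and 22 (8 and 14) with 10 separate libraries, where near-identical libraries count as replicates. Over all genes, TSA calls were 1195 higher and 534 lower as reported, 570 and 201 without a filter, 1795 and 935 without genes at 0, and 3902 and 2872 with 10 separate libraries, and 0 to 1195 higher and 0 to 535 lower with 1 library left out. Th2 over CD4 T calls were 2086 higher and 4709 lower, and 3369 and 6495 with 10 separate libraries, and 942 to 2086 higher and 2246 to 4709 lower with 1 left out.

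The experiment numbers of the Th2 libraries pair them at most by a shared number: the differences between experiments correlated at 0.577 across 12907 genes, over only 2 pairs. For TSA, the 4 Th2 libraries gave 5 calls (2 higher, 3 lower) with the replicate block and 5 (2 and 3) without it, but not the same genes. With the block they were Ep300, Sirt2, Kat2b, Mta2 and Ncor1, and Hdac1 and Kat5 were not called. Without it they were Ep300, Hdac1, Hdac7, Kat5 and Mta2. For Th2 over CD4 T cells the block was fitted with the CD4 T pair as separate libraries and gave 26 calls (5 and 21). The 10 separate libraries without a block also gave 26 (5 and 21), so the block alone was not compared there.

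Some changes that passed in neither setting changed sign, and the cause was not tested. In Th2 over CD4 T cells, leaving out 1 library gave -0.28 to 0.12 for Hdac7 and -0.07 to 0.53 for Sirt6. Median-ratio scaling gave 0.18 for Hdac7, 0.16 for Brd3, 0.10 for Brd7 and 0.23 for Mta2, and quantile normalization 0.00 for Kat5, 0.33 for Brd3 and 0.02 for Brd7. For TSA, leaving out 1 library gave -0.29 to 0.02 for Hdac2, -0.28 to 0.02 for Hdac3, -0.49 to 0.03 for Hdac4, -0.26 to 0.10 for Sirt7, -0.27 to 0.01 for Brd9, -0.15 to 0.04 for Sin3a, -0.34 to 0.05 for Rcor1 and -0.14 to 0.26 for Chd4, and quantile normalization gave 0.01 for Sirt7. Depth is unknown, and the 4 Th2 libraries alone set the spread.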
